A study of Mus musculus with 12 samples.

Results

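Voltage-gated sodium channels carry the current that starts and propagates action potentials, and 8 genes of this system were followed in mouse cerebellum: the alpha subunit genes Scn1a, Scn2a, Scn3a and Scn8a, the beta subunit genes Scn2b, Scn3b and Scn4b, and Fgf14. They were chosen by name from the 55401 gene identifiers in the count tables and not by their values, although earlier results of these data were known. All 8 passed the filter on low counts (19378 genes tested). The mice carried an Atxn1 allele with 154 glutamine codons in place of the endogenous one, beside an unexpanded allele with 2 (the labels' Atxn1 154Q/2Q genotype, Het), which models spinocerebellar ataxia type 1, or were wild type (WT). The 3 groups of 4 mice, with 1 library each from tissue labelled cerebellum, were wild-type mice given the solvent dimethyl sulfoxide (WT DMSO), heterozygous mice given the solvent (Het DMSO), and heterozygous mice given the compound labelled Hit 2 at 25 mg/ml in that solvent (Het Hit 2). All mice were injected intraperitoneally from 18 weeks of age in 2 courses of 5 days with 2 days between them, with the solvent kept under 4 ml/kg, and were sampled at 20 weeks. No wild-type mice given Hit 2 were analysed here, so a response of wild-type tissue to the compound was not measured. Counts per gene do not tell the expanded from the unexpanded Atxn1 copy and do not check the genotype.

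The alpha subunit forms the pore of the channel and its voltage sensor, and the loop between its last 2 repeats closes the pore during inactivation. Beta subunits are single-pass membrane proteins that modify gating and placement of the channel, and Fgf14 is an intracellular FGF homologous factor that binds the tail of the alpha subunit; loss of FGF14 function in people causes a hereditary spinocerebellar ataxia. In the cerebellum, Purkinje cells fire spontaneously with a resurgent sodium current, and the far more numerous granule cells send thin unmyelinated axons, so whole-tissue RNA mixes the channels of both with those of interneurons.

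Reads assigned to genes ranged from 15855751 to 45265719 per library. Libraries stood apart in ways that touch the members, and they are named by animal number. Library 411 (Het DMSO) held little RNA of the main cerebellar neurons: its 9 granule cell markers summed to 104 CPM (read counts scaled to a common, TMM-adjusted library size) against 3749 to 8288 elsewhere, and its 10 Purkinje cell markers to 659 CPM against 3408 to 8082. The 10 genes listed for neurons outside the cerebellum summed to 455 CPM there, with 2 of the 10 at 0, against 15.9 to 128 in the other libraries. The list was not uniform: 5 of the 10 were highest in 411, namely Slc17a6, Tcf7l2 (76.2 CPM), Slc6a3 (36.2), Th (32.2) and Gata3, and 5 were not. Among the latter, Hoxb3 and Hoxb5 were at 0 in 411 and highest in WT DMSO library 425 (2.99 and 5.91 CPM), Neurod6 was at 1.36 against 2.08 to 3.80 in the 10 libraries other than 409 and 411, and Emx1 was at most 0.116 CPM in any library. The markers of library 411 thus go against its label, which puts its tissue in doubt, and every mean over 4 Het DMSO libraries and every 12-library difference that uses that group includes it. The difference of Het Hit 2 from WT DMSO shares with it only the estimate of spread and the scaling. Slc17a6, a vesicular glutamate transporter gene of thalamic and brainstem neurons and also of the cerebellar nuclei, and Gata3, a transcription factor gene of midbrain and brainstem neurons, were picked out after their values were seen. Slc17a6 stood at 278 CPM in library 411, 84.6 in 410, 48.5 in 430 and 37.5 in 413, and at 0.253 to 22.3 in the other 8. Gata3 stood at 31.1, 9.03, 3.38 and 1.32 CPM in the same 4 libraries and at most 0.292 in the others. Library 409 (Het DMSO) differed by base composition: relative to the other Het DMSO libraries 420 and 429, of 5 equal bins of genes by exonic GC content the lowest was shifted by -1.39 (median, log2) and the highest by 0.65. Results are therefore given with all 12 libraries and without 409 and 411, which leaves 2 mice in the Het DMSO group. Sex also differed: Xist, the RNA of the inactive X chromosome, had 59107 and 55987 reads in WT DMSO libraries 425 and 426 and 1 to 11 in the other 10, so no Het library carried it. Sex and genotype are thus partly confounded, and without those 2 libraries 0 of 8 members passed in each comparison. In bulk tissue, fewer cells of a type and less RNA per cell cannot be told apart.

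The 8 genes differed widely in level per kilobase of exon. Over the 10 libraries other than 409 and 411, Scn2b was highest with 79.2 CPM per kb ± 8.40 (SD, n = 10), followed by Scn2a with 53.6 ± 6.03, Scn8a with 37.0 ± 2.14 and Fgf14 with 33.9 ± 4.91. Scn1a followed at 25.2 ± 2.62 CPM per kb and Scn4b at 12.9 ± 4.62, while Scn3b (1.39 ± 1.85) and Scn3a (0.918 ± 0.974) were lowest, with SDs larger than or close to their means. Scn2b exceeded Scn2a, Scn2a exceeded Scn8a, and Scn1a exceeded Scn4b in 10 of 10 libraries, although the ranges of Scn1a and Scn4b just overlapped (lowest 21.5, highest 21.6). The other neighbours had overlapping ranges and did not separate in every library, apart from Scn4b, which was above Scn3b in 10 of 10 without overlap: Scn8a was above Fgf14 in 6 of 10, Fgf14 above Scn1a in 9 of 10, and Scn3b above Scn3a in 9 of 10. The order of the 8 means was the same with all 12 libraries. Lengths are the summed exons of all annotated transcripts, so a gene whose long exons are little used reads low on this scale.

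**Figure D1:**
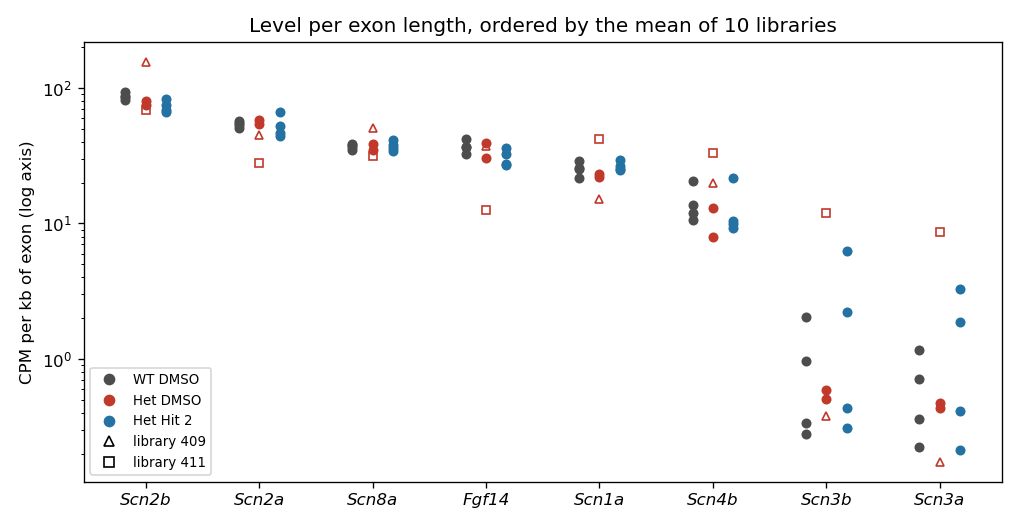
Level of each gene in CPM per kilobase of exon (vertical log axis), 1 point per library, coloured by group, with libraries 409 and 411 as open symbols; genes are ordered by the mean of the other 10 libraries. Scn2b (mean 79.2) is highest, Scn3b (1.39) and Scn3a (0.918) lowest and most scattered.

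The alpha subunit genes are close relatives, with Scn1a, Scn2a and Scn3a on chromosome 2 and Scn8a on chromosome 15. Over whole transcripts (GENCODE M21) the genes are separable by reads of the length used: of all 100-base windows, 0.876% of those of Scn1a, 1.03% of Scn2a and 2.22% of Scn3a occurred exactly in another gene among 16 other sodium channel and FGF homologous factor genes compared, and none of those of Scn8a, Scn2b, Scn3b, Scn4b or Fgf14 did.

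None of the 8 genes changed past an adjusted p of 0.05 in any comparison (edgeR's quasi-likelihood test, Benjamini-Hochberg adjustment over all genes tested), with 12 libraries or without 409 and 411. Few other genes did either: 0.00516% of all genes passed for Het DMSO relative to WT DMSO, 0.00516% for Het Hit 2 relative to WT DMSO, 0.0516% for both Het groups averaged, and 0% between the Het groups (301 genes at an unadjusted p under 0.05). Without 409 and 411 these shares were 0.0895%, 0.448%, 0.607% and 0%. No member reached an unadjusted p of 0.05 with 12 libraries, where 7.11%, 1.71%, 3.79% and 1.55% of all genes did in the same order. Without 409 and 411 it was reached by 0, 2, 1 and 0 members, beside 5.83%, 9.5%, 8.3% and 3.72% of all genes. The DESeq2 test, run as an alternative, also called 0 of 8 members in each comparison, and its calls among all genes were 43, 24, 56 and 0 in that order. Median log2 differences of the 8 members were 0.10, -0.02, 0.04 and -0.22, beside 0.05, 0.02, 0.03 and -0.04 over all genes. The members' medians without 409 and 411 were -0.17, -0.03, -0.03 and 0.12, so 3 of the 4 turned sign, beside medians between -0.0051 and 0.0094 over all genes. The p-values set each difference against the spread between libraries, 1 per mouse, estimated over all 3 groups together. With 12 libraries that spread includes 409 and 411. Without them the SE of Scn8a for Het DMSO against WT DMSO fell from 0.149 to 0.087, and Het DMSO then gave 2 mice to the estimate.

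**Figure D2:**
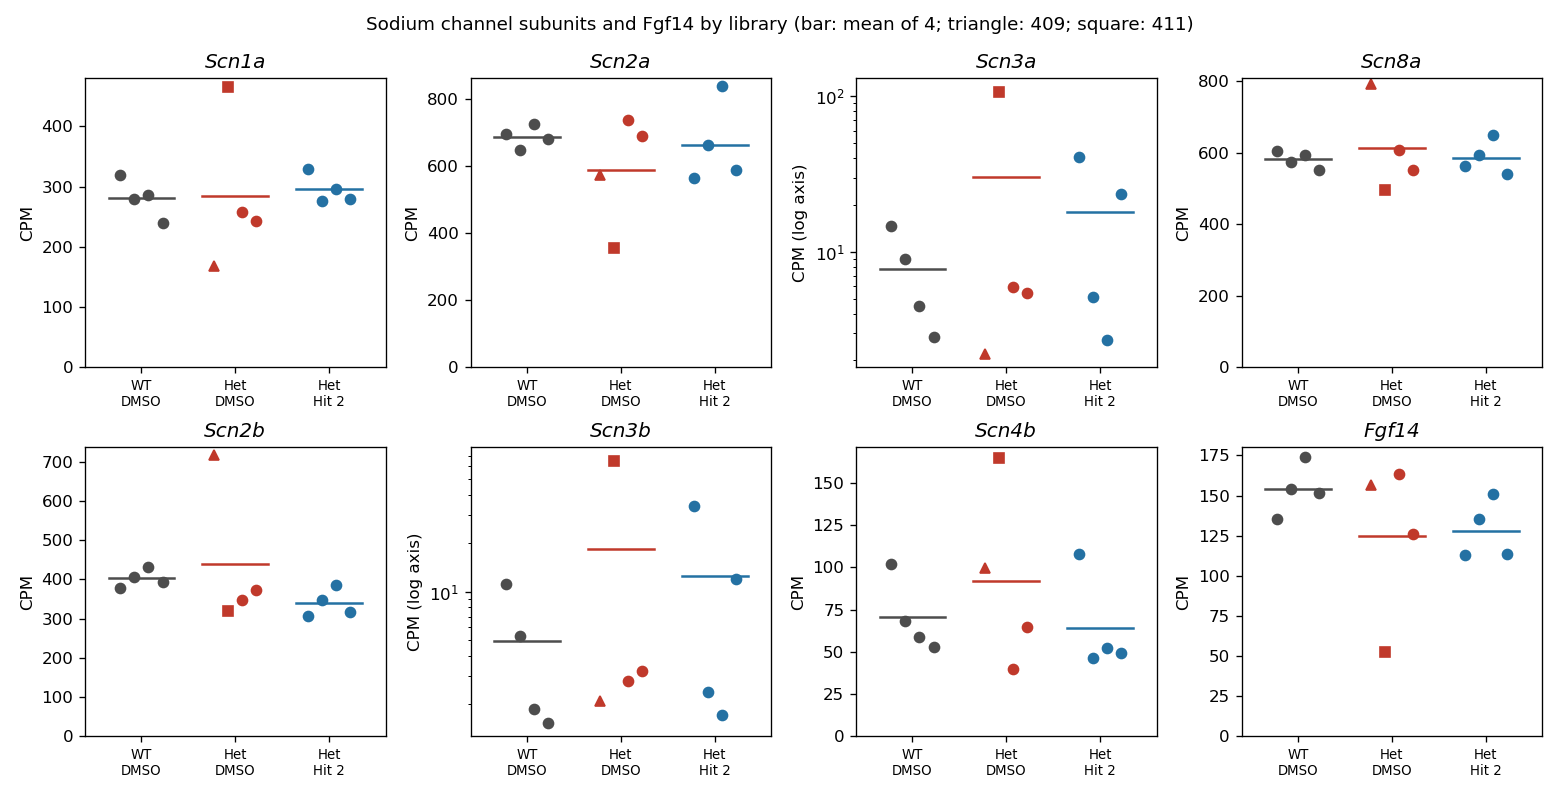
CPM of the 8 genes in each library by group (points; horizontal bars are means of 4; log axis for Scn3a and Scn3b), with library 409 as a triangle and 411 as a square. The groups overlap for every gene, and the highest or lowest point of a panel is often 409 or 411, such as Scn2b at 715 CPM in 409 and Fgf14 at 52.4 CPM in 411.

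Values by library follow in the order 413, 425, 426 and 431 for WT DMSO, 409, 411, 420 and 429 for Het DMSO, and 410, 421, 422 and 430 for Het Hit 2, all in CPM. Scn2a, the channel of unmyelinated axons such as those of granule cells, stood at 695, 647, 726 and 679 in WT DMSO, at 573, 355, 737 and 688 in Het DMSO, and at 565, 661, 837 and 589 in Het Hit 2. The 4 wild-type libraries lay within a narrow band, and the low values were those of 411, 410, 409 and 430. The difference of Het DMSO from WT DMSO was -0.22 on the log2 scale (SE 0.21, adjusted p = 0.681, edgeR) and turned to 0.04 (SE 0.14) without 409 and 411. Het Hit 2 against WT DMSO gave -0.05 with all libraries and -0.06 without those 2, and the groups overlapped throughout.

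Scn2a levels followed the granule cell marker Gabra6, the gene of a GABA receptor subunit confined to these cells in the cerebellum, with r = 0.955 over the 10 libraries and 0.898 over all 12 (Pearson, log2 CPM, a description across libraries that share depth and scaling). With Neurod1, also a granule cell gene, r was lower over the 10 libraries, at 0.679, and 0.902 over 12. The Purkinje cell genes Calb1 and Pcp2 gave 0.571 and 0.506 over 10, and over 12 were as high as the granule cell genes, at 0.913 and 0.892. Slc17a6 gave -0.804 over 10 and -0.787 over 12. Each of the 8 members was set against the same 7 markers, and only part of the values is printed, most of them high and positive. Gabra6 stood at 306 to 339 CPM in WT DMSO, at 230, 0.606, 366 and 312 in Het DMSO, and at 227, 310, 388 and 240 in Het Hit 2. The 2 Hit 2 libraries with the least Scn2a, 410 and 430, thus also had the least Gabra6 of their group. In library 411, Scn2a kept 355 CPM with Gabra6 near 0. Granule markers did not move together in 409: Gabra6, Neurod1 (135 CPM) and Etv1 (194) were below all 4 wild-type libraries, while Fat2 (4022), Slc17a7 (751) and Grin2c (986) were the highest of the 12, and the 9 markers summed to 8288 CPM, also the highest. The part of granule cell content in the Scn2a values was not tested.

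Scn8a, which carries much of the persistent and resurgent current of Purkinje cells and sits at initial segments and nodes, was the steadiest member. It stood at 606, 574, 595 and 551 CPM in WT DMSO, at 793, 497, 607 and 552 in Het DMSO, and at 563, 593, 651 and 540 in Het Hit 2. Outside 409 and 411 the highest library exceeded the lowest only 1.20-fold. The log2 difference was 0.07 for Het DMSO against WT DMSO, with a 95% interval of -0.25 to 0.40, and -0.02 with an interval of -0.21 to 0.18 without 409 and 411. For Het Hit 2 against WT DMSO it was 0.01 (interval -0.31 to 0.34), and for Het Hit 2 against Het DMSO -0.06 (interval -0.39 to 0.26).

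Scn1a, used by inhibitory neurons and Purkinje cells, stood at 319, 280, 286 and 239 CPM in WT DMSO, at 168, 464, 258 and 244 in Het DMSO, and at 329, 276, 295 and 280 in Het Hit 2. The highest and the lowest of the 12 libraries were both in the Het DMSO group, 411 and 409. Group means were close, 281 ± 32.6 (SD, n = 4), 284 ± 127 and 295 ± 24.0 CPM. Without 409 and 411, the 4 Hit 2 libraries all lay above both remaining Het DMSO libraries, a log2 difference of 0.23 (SE 0.11, unadjusted p = 0.0624, adjusted p = 0.983, edgeR), where 6.32% of all genes were higher without overlap. Without 411 alone, which keeps 3 Het DMSO mice, the 4 Hit 2 libraries again lay above all of them, as for 2.04% of all genes, with a difference of 0.38 (SE 0.15, unadjusted p = 0.0274, adjusted p = 0.630, edgeR). That difference includes 409, the lowest library. In the same fit Scn3a (1.98, unadjusted p = 0.0429) and Scn2b (-0.53, unadjusted p = 0.0383) also fell under 0.05, in opposite directions, as did 5.96% of all genes, and no member passed the adjustment. Without 409 alone the Scn1a difference was -0.12 (SE 0.20) and with all 12 libraries 0.06 (SE 0.25), and the groups overlapped in both. With Gad2, a gene of inhibitory neurons, Scn1a had r = 0.603 over the 10 libraries and 0.921 over 12 (Pearson). By rank (Spearman's rho) the values were 0.358 and 0.629.

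Scn3a, the alpha subunit that predominates before birth, was low in most libraries: 14.6, 8.95, 4.50 and 2.82 CPM in WT DMSO, 2.19, 107, 5.91 and 5.46 in Het DMSO, and 40.7, 5.14, 2.69 and 23.6 in Het Hit 2. These values rest on 63 to 2127 reads. Its high libraries, 411, 410, 430 and 413, are the same 4 that were highest in Slc17a6. The log2 difference of Het DMSO from WT DMSO was 1.96 (SE 1.19, adjusted p = 0.616, edgeR) with all libraries and -0.45 (SE 0.98) without 409 and 411, and leaving out library 411 alone was enough to turn its sign. Het Hit 2 against WT DMSO gave 1.21 (SE 1.17), with 2 of 4 Hit 2 libraries above every WT library and 1 below. It ranged from 0.42 without library 410 to 1.71 without 413 when 1 library was left out.

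As shares of the reads on the 4 alpha genes together, which do not depend on library scaling, Scn2a took 44.1% ± 1.73 in WT DMSO (SD, n = 4), Scn8a 37.4% ± 0.486, Scn1a 18.0% ± 1.37 and Scn3a 0.489% ± 0.319. These shares are not corrected for length. In Het DMSO they were 38.6% ± 9.995, 40.3% ± 7.62, 19.0% ± 9.42 and 2.10% ± 3.63 in the same order. In Het Hit 2 they were 42.2% ± 3.81, 37.6% ± 0.894, 19.0% ± 2.32 and 1.21% ± 1.20 in the same order. The Scn8a share stayed between 36.4% and 38.6% in the 10 libraries other than 409 (51.6%) and 411 (34.9%). Scn2a and Scn1a traded places in size of share in library 411, with 24.9% and 32.6%. No difference between groups passed (exact two-sided permutation test, 12 tests, smallest adjusted p = 0.994, with 0.0286 the smallest unadjusted p this design can give). After adjustment over 12 tests, 1 share that separated 2 groups fully could not have passed on its own. The test therefore cannot decide whether the share of a single gene differed.

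**Figure D3:**
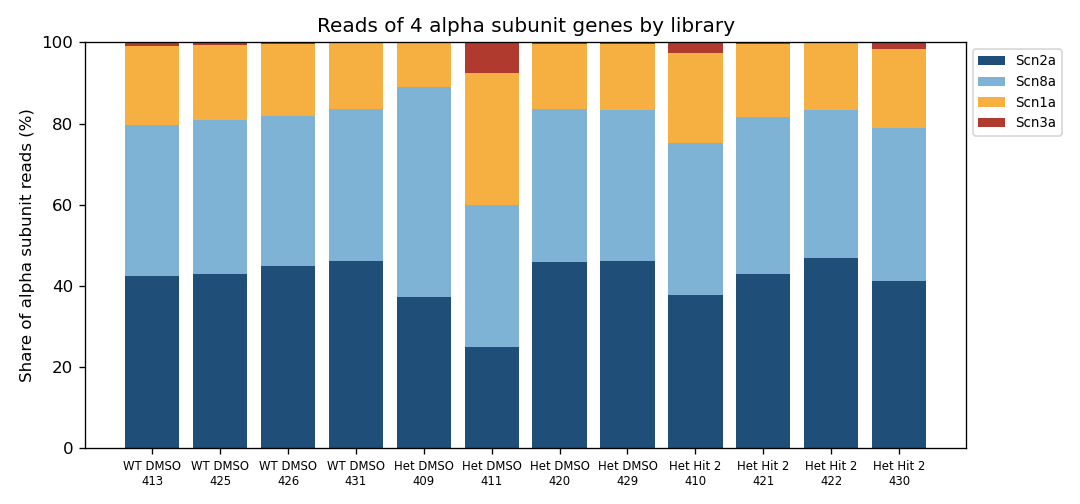
Share of alpha subunit reads (vertical axis, percent) taken by each of the 4 genes, 1 stacked bar per library. The bars that stand out are 409, where Scn8a took 51.6%, and 411, where Scn2a took 24.9% and Scn3a 7.54%; Scn3a is next largest in 410 at 2.72%.

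Among the beta subunits, Scn2b and Scn4b are the pair that bind alpha subunits by a disulfide bond, and the Scn4b tail acts as the blocking particle of resurgent current. They are neighbours on chromosome 9, and over the 10 libraries their levels had r = -0.09 with each other, and 0.09 over 12. The 250 bases before their starts differ in base composition, and are shown because the members are adjacent yet differ in level (RefSeq, GRCm38.p6, plus strand, chr9:45117626-45117875 and chr9:45138374-45138623).
Scn2b: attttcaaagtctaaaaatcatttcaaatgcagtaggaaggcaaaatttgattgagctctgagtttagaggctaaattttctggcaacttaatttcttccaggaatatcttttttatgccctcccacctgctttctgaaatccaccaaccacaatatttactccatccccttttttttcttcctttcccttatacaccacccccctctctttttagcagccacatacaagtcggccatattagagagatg
Scn4b: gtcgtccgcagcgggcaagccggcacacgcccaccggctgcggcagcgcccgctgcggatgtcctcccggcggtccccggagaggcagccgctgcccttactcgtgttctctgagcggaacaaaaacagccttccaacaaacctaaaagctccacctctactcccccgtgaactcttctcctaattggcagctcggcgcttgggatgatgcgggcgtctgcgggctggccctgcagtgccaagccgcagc
The Scn2b window had 38.4% GC and 1 CpG, and the Scn4b window 66.0% GC and 23 CpGs, which was above the GC content of 9.0% and 84.5% of all promoters in the table. Of the TATA box letters TATAAA, the GC box letters GGGCGG and the left and right parts of the element bound by Rest, TTCAGCACC and GGACAGCGC, searched on both strands, neither window held any, so no base is in capitals; 12.4%, 32.7%, 0.301% and 0.304% of 32851 windows of the same length held them. The table matched 6 of the 8 members.

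Scn2b stood at 378, 405, 432 and 394 CPM in WT DMSO, at 715, 320, 347 and 372 in Het DMSO, and at 307, 348, 386 and 318 in Het Hit 2. Apart from library 409, 6 of 7 Het libraries lay below all 4 wild-type libraries, and 422 (386) lay above only 413. With all 12 libraries, Het Hit 2 against WT DMSO was -0.24 (SE 0.23, adjusted p = 1.00, edgeR) and Het DMSO against WT DMSO 0.12 (SE 0.23). Without 409 and 411 these became -0.26 (SE 0.08, unadjusted p = 0.00923, adjusted p = 0.280) and -0.17 (SE 0.10, adjusted p = 0.963), and both Het groups together gave -0.21 (SE 0.08, unadjusted p = 0.0165, adjusted p = 0.383). Both Het DMSO libraries then lay below all 4 wild-type libraries, as for 9.74% of all genes. In those 10 libraries 9.5% and 8.3% of all genes reached an unadjusted p of 0.05 in the Hit 2 and the joint comparison.

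The Purkinje cell markers were measured in the same mice. Their sum ran from 7737 to 8082 CPM in WT DMSO, from 4959 to 5864 in Het DMSO libraries 420 and 429, and from 3408 to 6749 in Het Hit 2, with none of the 10 at 0. Scn2b levels over the 10 libraries had r = 0.820 with Calb1, 0.808 with Pcp2 (both Purkinje cell genes) and, of the granule cell genes, 0.832 with Neurod1 and 0.684 with Gabra6. Over all 12 libraries these values were 0.0676, 0.273, 0.225 and 0.237. Their part in the Scn2b values was not tested. In 409, the sum of Purkinje markers was 7386 CPM, of which Itpr1 alone was 4659, although Calb1 was 139 and Pcp2 110. Scn2b in 409 was 0.99 above the mean of 420 and 429 on the log2 scale. The bin of genes that holds its exonic GC content (50.4%) was shifted there by 0.077 and the highest bin by 0.65. These are medians and do not give the spread of genes within a bin. The part of base composition in the Scn2b value of 409 was not tested.

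Scn4b stood at 102, 68.3, 59.1 and 53.0 CPM in WT DMSO, at 99.5, 165, 39.7 and 64.7 in Het DMSO, and at 108, 46.3, 52.1 and 49.2 in Het Hit 2. Libraries 411, 410, 413 and 409 were the 4 highest, spread over all 3 groups, and the others lay between 39.7 and 68.3. The difference of Het DMSO from WT DMSO was 0.39 (SE 0.41, adjusted p = 0.708, edgeR) and became -0.44 (SE 0.38) without 409 and 411. Het Hit 2 against WT DMSO gave -0.15 (SE 0.41), with 3 of 4 Hit 2 libraries below every WT library. Scn4b followed Mbp, the myelin basic protein gene of oligodendrocytes, with r = 0.882 over 10 libraries and 0.909 over 12. Mbp ranged from 583 CPM in library 420 to 3241 in 411, and 410 was second with 2685, the order in which Scn4b was lowest and highest too. The part of myelinated tissue in the Scn4b values was not tested.

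Scn3b, a non-covalently bound beta subunit abundant in forebrain and in immature neurons, stood at 11.1, 5.30, 1.86 and 1.52 CPM in WT DMSO, at 2.09, 65.3, 2.80 and 3.21 in Het DMSO, and at 34.2, 2.37, 1.70 and 12.1 in Het Hit 2. It rose and fell with Scn3a across libraries (r = 0.983 over 10, 0.980 over 12), and its 4 highest libraries were again 411, 410, 430 and 413. Both genes followed Slc17a6 over the 10 libraries, with r = 0.876 for Scn3a and 0.875 for Scn3b, and over 12 with 0.813 and 0.865. With Gad2, a gene of GABA synthesis in inhibitory neurons, Pearson's r was 0.850 and 0.872 over 10 and 0.903 and 0.850 over 12. By rank (Spearman's rho over 10) the values were 0.552 and 0.467 with Gad2, against 0.855 and 0.891 with Slc17a6. Gad2 was not typical of the 6 interneuron markers: it was highest in 411 (292 CPM), where Kit (34.0) and Pax2 (0.454) were lowest, and the 6 summed to 402 CPM there, within the 338 to 427 of the other libraries. With Mbp the values were 0.735 and 0.786 over 10 libraries. Gata3 was highest in the same 4 libraries. The part of neurons from outside the cerebellar cortex or of myelinated tissue in these values was not tested. The difference of Het DMSO from WT DMSO was 1.89 (SE 1.25, adjusted p = 0.623, edgeR) and became -0.72 (SE 1.19) without 409 and 411. Het Hit 2 against WT DMSO gave 1.34 (SE 1.24), from 0.10 without library 410 to 2.09 without 413.

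**Figure D4:**
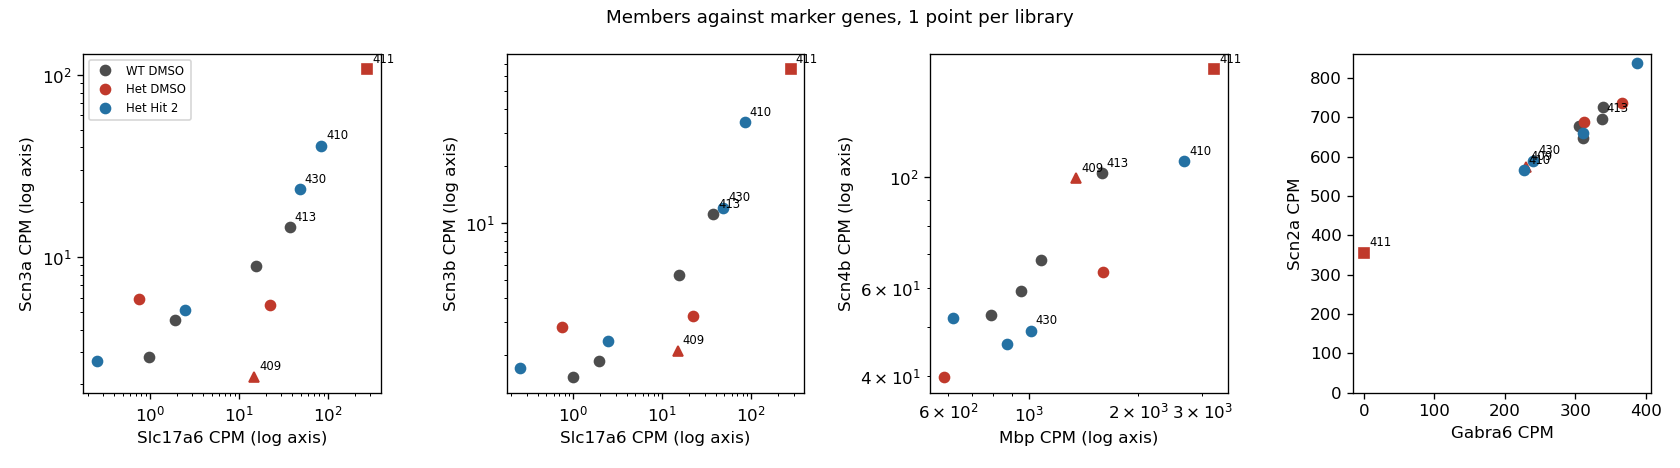
Member CPM against marker CPM, 1 point per library coloured by group (triangle 409, square 411): Scn3a and Scn3b against Slc17a6 and Scn4b against Mbp on log axes, and Scn2a against Gabra6 on linear axes. Scn3a and Scn3b climb with Slc17a6 to 411 at the upper right, and 411 sits alone at the left of the Gabra6 panel (0.606 CPM).

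Scn3b is also the member whose reads depend on strand. Reads on the strand opposite to the gene made up 49.3% of all its reads over the 12 libraries, against 0.0525% to 0.262% for the other 7 members, and in 8 of 12 libraries they outnumbered the reads of the gene itself. Gramd1b, annotated on the opposite strand with its end towards Scn3b, stood at 219 to 736 CPM. Opposite-strand reads at Scn3b had r = 0.83 with it, given over 12 libraries only and thus with 409 and 411 included. Library 411 was lowest in both, with 219 CPM of Gramd1b and 2.32 CPM of opposite-strand reads. Library 409, highest in Gramd1b, held 7.91 CPM of opposite-strand reads, where 431 held the most, 13.6. Opposite-strand CPM varied 5.86-fold between libraries where the sense CPM varied 42.9-fold. Without regard to strand, counts at Scn3b varied 6.76-fold.

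Fgf14 stood at 136, 154, 174 and 152 CPM in WT DMSO, at 157, 52.4, 164 and 126 in Het DMSO, and at 113, 135, 151 and 114 in Het Hit 2. No Het library exceeded the highest wild-type library, and 5 of 8 lay below the lowest. Library 411 was lowest by far, and the groups overlapped. Het DMSO against WT DMSO gave -0.30 (SE 0.28, adjusted p = 0.675, edgeR) and Het Hit 2 against WT DMSO -0.26 (SE 0.28, adjusted p = 1.00). Without 409 and 411 they were -0.10 (SE 0.15) and -0.28 (SE 0.12, unadjusted p = 0.0428, adjusted p = 0.500). Leaving out 411 alone brought the Het DMSO difference to -0.03 (SE 0.15). Over the 10 libraries Fgf14 followed the granule cell genes Neurod1 (r = 0.811) and Gabra6 (r = 0.797), with 0.927 and 0.922 over 12. With the Purkinje cell genes Calb1 and Pcp2 r was 0.711 and 0.673 over the 10 libraries, and 0.860 and 0.934 over 12. Granule markers summed to 3749 and 4059 CPM in 410 and 430, the lowest of those 10 libraries and also the 2 with the least Fgf14, and the part of this in the Fgf14 difference was not tested.

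**Figure D5:**
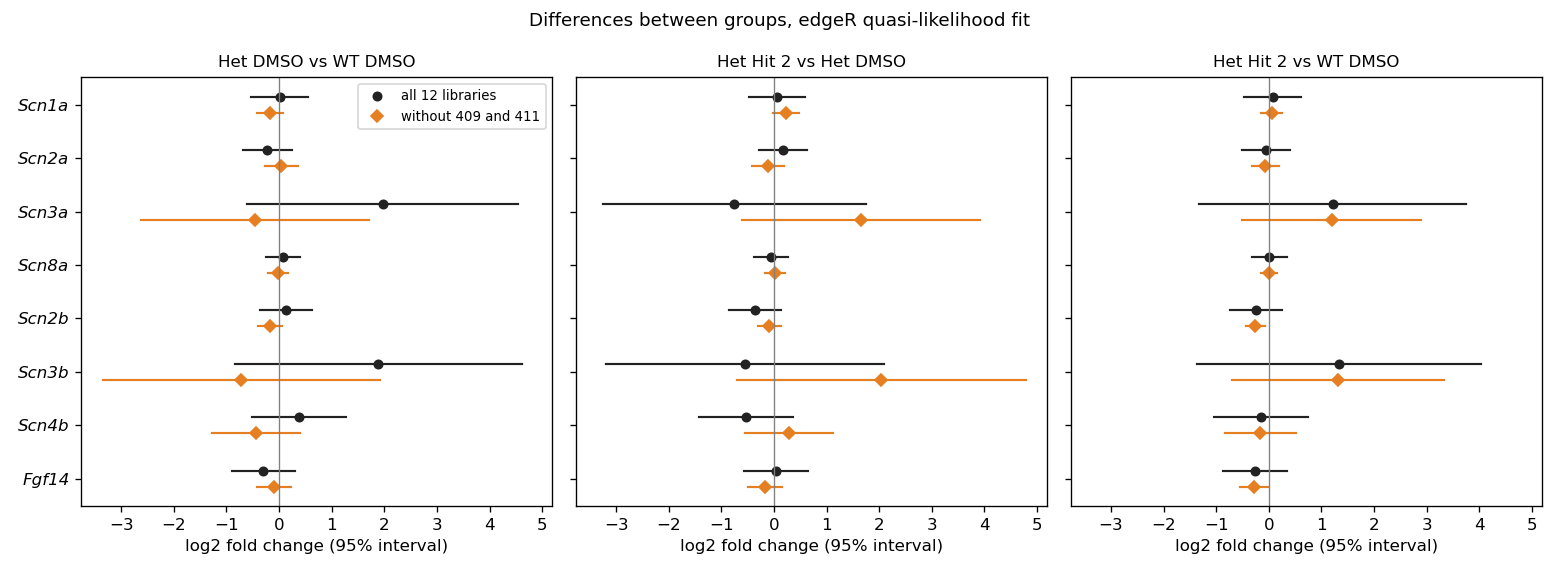
Log2 fold change of each gene with its 95% interval (horizontal axis) in 3 comparisons, with all 12 libraries (circles) and without 409 and 411 (diamonds). With all libraries every interval spans 0; without 409 and 411 only Scn2b (-0.26) and Fgf14 (-0.28) in Het Hit 2 against WT DMSO lie off 0, and neither passed the adjustment.

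In heterozygous mice given Hit 2, no member differed from Het DMSO past the threshold. The differences ran from -0.75 (Scn3a, SE 1.15) to 0.17 (Scn2a, SE 0.21), with Scn2b at -0.37 (SE 0.23, adjusted p = 0.898, edgeR) and Scn4b at -0.53 (SE 0.41, adjusted p = 0.898). Without 409 and 411 Scn2b was at -0.09 (SE 0.10). Scn4b turned to 0.28 (SE 0.38), and Scn3a and Scn3b turned to 1.65 (SE 1.02) and 2.04 (SE 1.24). This comparison and that of Het DMSO with WT DMSO share the Het DMSO libraries, so a library that is high in Het DMSO moves the 2 differences in opposite directions.

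Of 9 genes tested among 11 other sodium channel subunits, the leak channel and FGF homologous factors, 0 passed in any comparison with either set of libraries. Fgf12 ranged from 57.7 CPM in 409 to 118 in 411, and Fgf13 from 9.30 in 429 to 51.4 in 411. In Het Hit 2 against WT DMSO, Fgf12 differed by -0.02 (SE 0.19) and Fgf13 by 0.61 (SE 0.48).

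Fgf11, the fourth FGF homologous factor, was named after its values were seen. It stood at 35.6, 32.3, 35.7 and 30.6 CPM in WT DMSO, at 21.5, 30.5, 24.5 and 26.8 in Het DMSO, and at 26.2, 26.5, 27.1 and 19.9 in Het Hit 2. All 8 Het libraries lay below all 4 wild-type libraries, as for 1.18% of all genes, with library 411 just under the lowest. The difference of both Het groups from WT DMSO was -0.40 (SE 0.12, adjusted p = 0.797, edgeR). It passed with quality weights per library in limma (-0.40, SE 0.08, adjusted p = 0.0191) and not without 409 and 411 (-0.42, SE 0.10, adjusted p = 0.107).

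Among 12 genes of the axon initial segment and node, where these channels are anchored, 0 of 12 passed with all libraries and 1 rose without 409 and 411. That gene was Cntnap2, an adhesion protein beside the sodium channels that clusters potassium channels. It stood at 150, 141, 145 and 141 CPM in WT DMSO, at 210, 275, 176 and 167 in Het DMSO, and at 215, 176, 188 and 191 in Het Hit 2. All 8 Het libraries lay above all 4 wild-type libraries, as for 0.619% of all genes. With 12 libraries both Het groups differed from WT DMSO by 0.47 (SE 0.13, adjusted p = 0.717, edgeR), and without 409 and 411 by 0.32 (SE 0.06, adjusted p = 0.0463). In Het Hit 2 against WT DMSO it was 0.40 (SE 0.06, adjusted p = 0.0264) without those 2 libraries. For Het DMSO it did not pass: the difference from WT DMSO was 0.52 (SE 0.15, adjusted p = 0.616) with 12 libraries and 0.24 (SE 0.08, adjusted p = 0.545) without 409 and 411, and it passed in 0 of 25 alternatives (lowest adjusted p 0.128). Of 10 enzymes and calmodulin genes that act on the channels and 8 RNA-binding and transcription factors of sodium channel genes, 0 and 0 passed with either set of libraries.

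The genes most like each member across the 10 libraries were sought among 16615 genes with a mean of at least 1 CPM, by Pearson's r of log2 CPM. Scn3a had the closest match, Gabra3 (r = 0.994), followed by Mpped1 (0.990), and Scn3b was matched by Arhgap36 and Minar2 (0.991 each). Scn1a was matched by Diras1 (0.989) and Trnp1 (0.948), Scn2b by Gm11611 (0.975) and Tmem108 (0.970), and Scn4b by Rhog (0.963) and Phgdh (0.960). Scn2a was matched by Msra (0.960) and Brinp1 (0.956), Fgf14 by Vps37c (0.956) and Prune1 (0.945), and Scn8a by Fmnl1 (0.948) and Kcnab1 (0.945). With all 12 libraries the match of Scn3a with Gabra3 was 0.994 and that of Scn1a with Diras1 was 0.354.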

How the data were processed

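Cerebellar RNA of 12 mice was sequenced as paired reads of 100 bases from directional libraries depleted of ribosomal RNA (500 ng of RNA, 13 cycles of amplification), per the labels' protocols. The authors deposited STAR gene tables of whole-number read counts, per the labels and the values, without normalization. The submitters' processing notes name FastQC 0.11.9, STAR 2.7.10a and the builds GRCm39 and mm39; the annotation release is not given in the sources used here. The counts of the strand holding most reads were used, the opposite strand holding 5.21% to 6.47%, and reads without a gene (44.7% to 54.6% unassigned) stayed out of library sizes. Symbols came from GENCODE M21, matching 55141 of 55401 identifiers. Exon lengths, GC content, transcripts and promoters are from GRCm38 (GENCODE M21; RefSeq GRCm38.p6), a build other than the authors', so no gene coordinates are given except those of the promoters.

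Groups came from the labels. All 12 libraries entered 1 fit in edgeR 4.0.16 (R 4.3.3: filterByExpr, TMM factors, quasi-likelihood test, Benjamini-Hochberg adjustment over 19378 genes, adjusted p under 0.05); CPM use TMM factors, and correlations use log2 CPM with a prior count of 2. Intervals are at 95%. The fitting code was tested on simulated data. Alternatives used DESeq2 1.42.0, limma 3.58.1, sva 3.50.0, other scalings, filters and strands, and fits without single or several libraries; the fit without 409, 410 and 411 was added after seeing the data. The members, gene lists and tests were chosen with earlier results of these data known. Named were all members, Fgf12 and Fgf13, list genes past the threshold, the 2 genes most like each member, and markers; Slc17a6, Gata3, Gramd1b and Fgf11 were picked out after their values were seen. Another gene that the rule names, and some sequences, are not reported here.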

Additional observations from a re-analysis of the deposited data

Results flagged for a closer look

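In groups of 4, the highest or lowest library was compared with the nearest of the others, and marked where that gap took up more of the group's range than Dixon's critical value allows. Chance marks about 1 in 20 groups, or 1.8 of the 36 groups of member values and alpha subunit shares checked, and 6 were marked. In Het DMSO, library 411 held 107 CPM of Scn3a with the next library at 5.91, and 65.3 CPM of Scn3b with the next at 3.21. The share of alpha subunit reads on Scn3a in library 411 was 7.54%, with the next at 0.368%. Library 409 of the same group held 715 CPM of Scn2b, with the next at 372, and 51.6% of its alpha subunit reads were on Scn8a, with the next at 37.7%. In Het Hit 2, library 410 held 108 CPM of Scn4b with the next at 52.1.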

How the results depend on the processing

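The count of members past the threshold was 0 in each of the 4 comparisons and stayed 0 in all 103 alternative counts run, with a lowest adjusted p of 0.158. Among all genes the count did move: from 1 to between 0 and 98 for Het DMSO against WT DMSO, from 1 to between 0 and 221 for Het Hit 2 against WT DMSO, from 10 to between 1 and 343 for both Het groups against WT DMSO, the highest each time with quality weights in limma, and it was 0 throughout for Het Hit 2 against Het DMSO. The order of the members' levels per length did not change. Of 792 alternative log2 fold changes of the members, 98 had the opposite sign and 0 passed the threshold. Cntnap2 passed for Het Hit 2 against WT DMSO under 4 alternatives and for both Het groups under 3, and Fgf11 under limma alone. The causes of the sign changes were not tested. Upper-quartile scaling gave the opposite sign at Scn1a -0.0026 for Het DMSO against WT DMSO. Dropping the filter on low counts gave the opposite sign at Scn1a -0.025 for Het DMSO against WT DMSO, in Hit 2 against WT DMSO at Scn8a -0.0039. The limma fit with quality weights gave the opposite sign at Scn1a -0.15, Scn2a 0.023, Scn3a -0.14, Scn8a -0.012, Scn2b -0.17, Scn3b -0.13, Scn4b -0.33 and Fgf13 -0.14 for Het DMSO against WT DMSO, between the Het groups at Scn2a -0.068, Scn3a 0.10, Scn8a 0.028, Scn3b 0.11, Fgf14 -0.091, Fgf13 0.72 and Cntnap2 0.081, in Hit 2 against WT DMSO at Scn3a -0.037 and Scn3b -0.022, with both Het groups joined at Scn1a -0.068, Scn3a -0.088, Scn3b -0.075 and Scn4b -0.36. Leaving out libraries 409 and 411 gave the opposite sign at Scn1a -0.18, Scn2a 0.044, Scn3a -0.45, Scn8a -0.015, Scn2b -0.17, Scn3b -0.72, Scn4b -0.44 and Fgf13 -0.32 for Het DMSO against WT DMSO, between the Het groups at Scn2a -0.11, Scn3a 1.65, Scn8a 0.015, Scn3b 2.04, Scn4b 0.28, Fgf14 -0.18, Fgf13 0.91 and Cntnap2 0.16, in Hit 2 against WT DMSO at Scn8a -9.8e-05, with both Het groups joined at Scn1a -0.059, Scn8a -0.0078 and Scn4b -0.30. Adding 1 surrogate variable gave the opposite sign at Scn1a -0.22, Scn3a -0.31 and Scn3b -0.24 for Het DMSO against WT DMSO, between the Het groups at Scn3a 0.51, Scn3b 0.45 and Fgf13 0.25, in Hit 2 against WT DMSO at Scn1a -0.019 and Scn2a 0.021, with both Het groups joined at Scn1a -0.12, Scn3a -0.056, Scn2b 0.0084, Scn3b -0.015 and Scn4b -0.10. Leaving out libraries 409, 410 and 411, chosen after seeing the data, gave the opposite sign at Scn1a -0.17, Scn2a 0.052, Scn3a -0.45, Scn8a -0.0070, Scn2b -0.16, Scn3b -0.71, Scn4b -0.43 and Fgf13 -0.31 for Het DMSO against WT DMSO, between the Het groups at Scn2a -0.034, Scn3a 0.86, Scn8a 0.038, Scn3b 0.81, Fgf14 -0.12, Fgf13 0.77 and Cntnap2 0.11, in Hit 2 against WT DMSO at Scn2a 0.018, with both Het groups joined at Scn1a -0.077, Scn2a 0.035, Scn3a -0.017, Scn3b -0.31 and Scn4b -0.47. Using unstranded counts gave the opposite sign at Fgf14 -0.021 for Het Hit 2 against Het DMSO. Leaving out WT libraries 425 and 426, the libraries with Xist, gave the opposite sign at Scn4b -0.019 for both Het groups against WT DMSO. The difference of Het Hit 2 from WT DMSO kept its sign with 1 library left out, from 0.42 to 1.71 for Scn3a and from 0.10 to 2.09 for Scn3b. Leaving out 1 library at a time spread the log2 differences of Het DMSO against WT DMSO across 0: Scn1a from -0.32 to 0.19, Scn3a from -0.78 to 2.46, Scn8a from -0.080 to 0.18, Scn2b from -0.22 to 0.28, Scn3b from -0.86 to 2.64, Scn4b from -0.025 to 0.63, Fgf12 from -0.31 to 0.014 and Fgf13 from -0.13 to 1.02. Leaving out 1 library at a time spread the log2 differences of Het Hit 2 against Het DMSO across 0: Scn1a from -0.12 to 0.38, Scn2a from -0.033 to 0.30, Scn3a from -1.52 to 1.98, Scn8a from -0.18 to 0.088, Scn3b from -1.76 to 2.18, Fgf14 from -0.25 to 0.19, Fgf11 from -0.13 to 0.030, Fgf12 from -0.042 to 0.28, Fgf13 from -0.39 to 0.72 and Cntnap2 from -0.20 to 0.025. Leaving out 1 library at a time spread the log2 differences of Het Hit 2 against WT DMSO across 0: Scn1a from -0.0051 to 0.13, Scn2a from -0.18 to 0.010, Scn8a from -0.042 to 0.038, Scn4b from -0.53 to 0.083 and Fgf12 from -0.12 to 0.078. Leaving out 1 library at a time spread the log2 differences of both Het groups against WT DMSO across 0: Scn1a from -0.13 to 0.13, Scn8a from -0.037 to 0.092, Scn2b from -0.24 to 0.0090, Scn4b from -0.093 to 0.35 and Fgf12 from -0.17 to 0.027. Leaving out 409 and 411 also turned differences in the share of alpha subunit reads (percentage points): Scn1a -1.82, Scn2a 1.91 and Scn3a -0.12 for Het DMSO relative to WT DMSO, and Scn2a -3.84, Scn3a 0.84 and Scn8a 0.19 for Het Hit 2 against Het DMSO. With 1 library left out at a time these shares crossed 0 as well: Scn1a from -3.57 to 3.65, Scn3a from -0.20 to 2.27 and Scn8a from -0.79 to 4.78 for Het DMSO relative to WT DMSO, and Scn1a from -2.66 to 4.56, Scn2a from -0.93 to 6.17, Scn3a from -1.55 to 0.92 and Scn8a from -4.55 to 1.01 for Het Hit 2 against Het DMSO, and Scn8a from -0.12 to 0.61 for Het Hit 2 against WT DMSO. With 4 mice a group, and 2 in Het DMSO without 409 and 411, differences within the intervals given cannot be seen. Scn3a and Scn3b rest on as few as 63 and 34 reads in a library. No paired analysis was possible because the animal numbers do not recur between groups.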
